A study of Mus musculus with 2 samples.

Results

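The mitosis and G2M genes are 35 genes whose transcripts accumulate in cells that have finished copying their DNA and are preparing to divide or are dividing. They were taken by name from a list that was drawn up with earlier results of these data known, and all 35 were found among the 15121 genes of the deposited expression table. The measurements are droplet 3' transcript counts of single cells that carry the label T cells, collected on day 5 from NILER, a transplantable melanoma of the mouse. The model descends from the Nras Q61R melanoma line NIL and had received ultraviolet radiation to add mutations. Of the 2 libraries, 1 was untreated and 1 came from the arm given Trametinib, which inhibits the kinase MEK, with BGB-283, an inhibitor of RAF kinases. The number of animals behind each library was not given in the sources used here.

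A dividing cell builds the mitotic programme in order. Cyclins and their kinases bring it into mitosis, condensins and topoisomerase fold and untangle the chromosomes, and kinetochores attach them to the spindle. The spindle checkpoint holds the cell until all are attached, and the anaphase promoting complex then destroys cyclin B and securin so that the cell divides. Activated T cells divide fast after meeting antigen, whereas naive T cells rest, so transcripts of these genes mark the dividing fraction of a T cell population. The ERK pathway, which lies below RAF and MEK, is one of the routes by which a T cell receptor signal starts that division.

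The untreated library held 9312 cells and 95349992 UMIs (unique transcript counts), and the treated library held 8078 cells and 58318786 UMIs. Median depth was 6155 and 5987.5 UMIs per cell. The libraries shared 35 cell barcodes. Cells were gated by UMIs of defining genes, which gave 4622 untreated and 4955 treated CD8 cells, 988 and 499 CD4 cells without Foxp3, 785 and 529 cells with Foxp3, and 214 and 73 dendritic cells. The dendritic gate excluded cells with a UMI of the 4 T cell genes used, although the labels call the material T cells. In that gate Flt3, a receptor of dendritic cells, had UMIs in 87.9% of untreated and 82.2% of treated cells. Flt3 is among the dendritic genes of which the gate required 2 or more, so the gate in part set this share. Levels are given as CPM, which scales the UMIs of a gene to the total UMIs of its gate. With 1 library per group no spread between animals could be measured and no test was made. Treatment and library therefore cannot be told apart, and every interval is a 95% interval for counting error alone. A gene is called lower or higher where its CPM differed at least 1.5-fold, among genes with at least 30 UMIs over the libraries and a UMI in each.

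Macrophage transcripts differed between the libraries in the same direction as the mitosis genes in the 3 T cell gates. UMIs of 2 or more of 8 macrophage genes were found in 12.1% of untreated and 5.87% of treated CD8 cells, in 9.01% and 3.81% of CD4 cells, and in 21.5% and 6.43% of cells with Foxp3. The summed level of the 8 genes was 731 and 130 CPM in CD8 cells, 2138 and 215 in CD4 cells and 2382.7 and 276 in cells with Foxp3, and none of the 8 was at 0. In the dendritic gate the order was the opposite, with 153 and 207 CPM and shares of 15% and 28.8%. C1qa, C1qb and C1qc were at 0 there by the gate. Red cell genes summed to 534 and 2.86 CPM in CD8 cells, 1006.5 and 0.785 in CD4 cells and 29.9 and 1.11 in cells with Foxp3. Class II genes, which present antigen, summed to 2486.4 and 671 CPM, 3264.9 and 1185.7 CPM, and 3880.5 and 2098.8 CPM in the same gates. All of these were thus higher in the untreated library, as the mitosis genes were. Without the cells with a red cell UMI (3.48% and 0.222% of the CD8 gate), the ratio of the members' sum given below had a log2 of -0.96 in CD8, -0.94 in CD4 and -0.61 in Foxp3 cells. The part of these transcripts in the results was not tested beyond leaving out cells with UMIs of 2 or more macrophage genes, or cells with a red cell UMI.

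Promoters of the members shared sequence features that the choice of genes had not used. Promoters of mitotic genes are known to carry CCAAT boxes, bound by NF-Y, and the cell cycle genes homology region (CHR), through which the DREAM and MuvB complexes act. RefSeq windows of 300 bases (build GRCm38.p6), from 250 before to 50 after the start, were found for 30 of the 35 members. CCAAT, read on both strands, was present in 80.0% of those windows, against 37.9% of the windows of all 27025 genes. The CHR, searched as TTTGAA or TTCGAA on both strands, was present in 83.3% of members and in 19.4% of all genes. Both motifs were present in 73.3% of members and 7.7% of all genes. Among 40 other mitosis genes with a window the CHR share was 67.5%, and among 29 DNA replication and S phase genes it was 24.1%, while CCAAT was present in 65.5% of that second list. A CHR and a CCAAT box overlap where TTTGAA runs into ATTGG, and such letters were counted for each motif.

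The windows below run from 150 bases before to 20 after the start, 5' to 3' on the gene's strand, with the motif letters in capitals. Cdc20, Hmmr, Ube2c and Ccnb1 are examples from the 20 members that were lower in all 4 gates, picked by no further stated rule. Kif11, Kif23 and Ncapd2 are shown because they were not lower in most gates. Birc5, Nusap1 and Nuf2 were also lower in all 4 gates, but neither motif was found in their searched windows, which are not shown.
Cdc20, chr4:118437324-118437493, strand -: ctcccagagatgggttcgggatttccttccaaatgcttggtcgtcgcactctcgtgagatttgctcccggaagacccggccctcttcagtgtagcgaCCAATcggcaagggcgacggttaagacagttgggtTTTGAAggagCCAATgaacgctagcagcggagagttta
Hmmr, chr11:40733418-40733587, strand -: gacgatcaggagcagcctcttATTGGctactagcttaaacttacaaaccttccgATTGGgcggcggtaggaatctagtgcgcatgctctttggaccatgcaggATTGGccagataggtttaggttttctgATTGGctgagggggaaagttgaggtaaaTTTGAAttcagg
Ube2c, chr2:164769779-164769948, strand +: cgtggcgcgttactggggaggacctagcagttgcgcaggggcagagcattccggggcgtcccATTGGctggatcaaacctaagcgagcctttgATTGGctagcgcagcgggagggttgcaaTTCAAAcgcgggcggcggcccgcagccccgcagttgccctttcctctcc
Ccnb1, chr13:100786467-100786636, strand -: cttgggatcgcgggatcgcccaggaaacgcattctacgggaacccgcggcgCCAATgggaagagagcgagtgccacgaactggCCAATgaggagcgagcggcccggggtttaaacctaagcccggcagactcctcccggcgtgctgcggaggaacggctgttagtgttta
Kif11, chr19:37376232-37376401, strand +: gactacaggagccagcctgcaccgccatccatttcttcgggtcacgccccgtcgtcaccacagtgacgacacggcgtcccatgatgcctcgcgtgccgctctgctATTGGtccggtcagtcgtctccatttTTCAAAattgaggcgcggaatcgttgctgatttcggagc
Kif23, chr9:61946780-61946949, strand -: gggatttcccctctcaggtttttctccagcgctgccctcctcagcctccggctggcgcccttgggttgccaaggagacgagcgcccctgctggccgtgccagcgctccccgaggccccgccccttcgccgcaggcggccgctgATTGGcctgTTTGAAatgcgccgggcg
Ncapd2, chr6:125191567-125191736, strand -: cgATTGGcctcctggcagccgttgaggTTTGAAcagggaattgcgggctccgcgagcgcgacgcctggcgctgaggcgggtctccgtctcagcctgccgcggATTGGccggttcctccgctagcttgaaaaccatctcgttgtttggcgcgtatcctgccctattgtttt

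Cdc20 holds CCAAT on either side of its TTTGAA, and Hmmr and Ube2c hold several CCAAT boxes in the inverted form ATTGG upstream of the CHR. Kif11 and Kif23 have 1 CCAAT box close to 1 CHR, and Ncapd2 has its CHR far upstream of the start. Ccnb1 has 2 CCAAT boxes and no match to the CHR letters in this window. Whether the motifs separate the members by their level in CD8 cells cannot be decided, since only 4 matched members were within 1.5-fold. A CHR was present in 80.8% of the 26 matched members that were lower and in 4 of the 4 within 1.5-fold. A CCAAT box was present in 21 of the 26 and in 3 of the 4. The windows of 16 of the 26 and of 1 of the 4 held 2 or more CCAAT boxes. A match is a description of letters and not evidence of binding.

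In CD8 cells, 30 of the 35 members were at least 1.5-fold lower in the treated library, none was higher, and 5 were within 1.5-fold. Over all 12856 genes measured the same way, 22.5% were lower and 28.2% higher. The median log2 ratio of treated over untreated was -1.24 for the members and 0.05 for all genes. Summed over members, the level was 1671.9 CPM in untreated and 832 CPM in treated CD8 cells, a 2.01-fold difference (1.98 to 2.04). Fewer dividing cells and less of these transcripts per cell cannot be told apart from such sums.

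**Figure D1:**
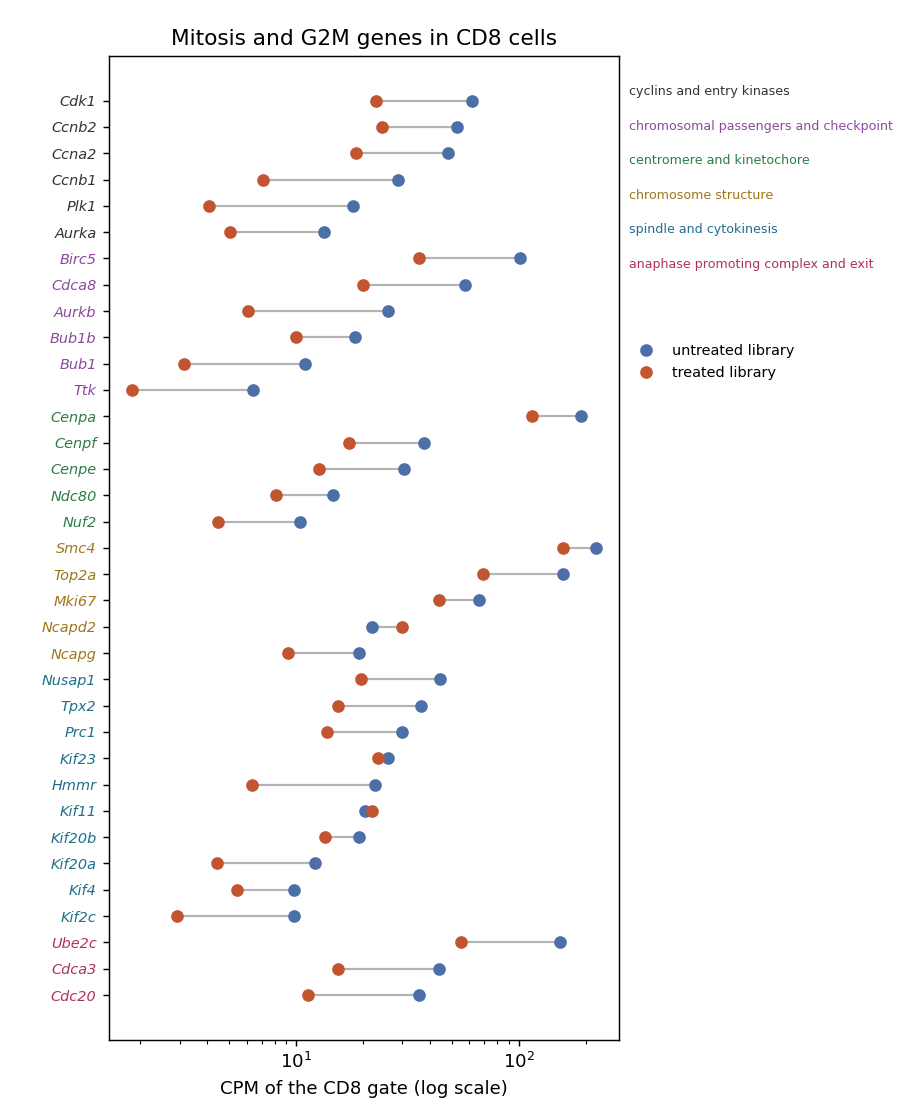
Level of each of the 35 mitosis and G2M genes in the CD8 gate, as CPM on a log scale, with 1 point for the untreated and 1 for the treated library and gene names coloured by role. The treated point lies to the left for every gene except Ncapd2 and Kif11.

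The genes that bring a cell into mitosis were all lower, 6 of 6, with a median log2 ratio of -1.42. Cdk1, the kinase that drives mitosis, was at 61.8 CPM in untreated and 22.9 CPM in treated CD8 cells. Its partners Ccnb1 and Ccnb2, the B-type cyclins, were at 28.8 and 7.09 CPM and at 53.0 and 24.4 CPM. Ccna2, the cyclin of S phase and G2, was at 47.8 and 18.5 CPM. The cyclins thus differed unequally: Ccnb1 had a log2 ratio of -2.02 (-2.22 to -1.83) and Ccnb2 one of -1.12 (-1.23 to -1.01), so the intervals of these close relatives did not meet. Plk1, the polo kinase of mitotic entry and spindle assembly, had the lowest ratio of the 35, with 18 and 4.07 CPM, a 4.43-fold difference (3.71 to 5.31). Aurka, the Aurora kinase of the spindle poles, was at 13.4 and 5.06 CPM.

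All 6 genes of the chromosomal passenger complex and the spindle checkpoint were lower as well (median log2 ratio -1.66). Aurkb, the kinase of the passenger complex, was at 25.8 and 6.05 CPM, 4.26-fold lower (3.68 to 4.94). Its partners Birc5 (survivin) and Cdca8 (borealin) were at 101 and 35.5 CPM and at 57.4 and 20.0 CPM. The kinase therefore differed more than its partners, whose ratios were 2.83-fold (2.66 to 3.02) and 2.87-fold (2.64 to 3.12). Bub1, a checkpoint kinase of the kinetochore, was at 11 and 3.13 CPM, and Ttk, the kinase at the top of the checkpoint, was at 6.38 and 1.84 CPM. Bub1b, which encodes the checkpoint protein BubR1, was at 18.3 and 10.0 CPM and was the least different of the 6.

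Of the centromere and kinetochore genes, 5 of 5 were lower. Cenpa, the histone H3 variant that marks centromeres, was at 189 and 114 CPM, a 1.66-fold difference. Cenpe, a kinetochore motor, was at 30.4 and 12.6 CPM, and Cenpf, a large kinetochore protein, was at 37.4 and 17.2 CPM. Ndc80 and Nuf2, which form the microtubule-binding complex together, were at 14.6 and 8.14 CPM and at 10.4 and 4.45 CPM.

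Genes of chromosome structure were the most mixed, with 3 of 5 lower. Top2a, the topoisomerase that untangles sister chromatids, was at 157 and 68.7 CPM, and Ncapg, a subunit of condensin I, at 19.1 and 9.21 CPM. Mki67, whose protein Ki-67 coats mitotic chromosomes and is the usual stain for dividing cells, was at 66.3 and 43.9 CPM, a 1.51-fold difference that lies just past the threshold (1.42 to 1.61). Ncapd2, another condensin I subunit, was the only member with a counting interval above equality, at 21.9 and 30 CPM (log2 ratio 0.46, 0.33 to 0.58). Smc4, the ATPase shared by the condensins, was at 221 and 157 CPM and stayed within 1.5-fold. The 2 subunits of the same condensin, Ncapg and Ncapd2, thus lay on opposite sides of equality.

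Among the 10 spindle and cytokinesis genes 7 were lower. Hmmr, a spindle assembly factor, was at 22.7 and 6.35 CPM, Kif2c, which takes microtubules apart at centromeres, at 9.74 and 2.91 CPM, and Kif20a, a motor of the midzone, at 12.2 and 4.40 CPM. Tpx2, the activator of Aurora A on the spindle, was at 36.3 and 15.4 CPM. Nusap1, which bundles spindle microtubules, was at 44.1 and 19.6 CPM, and Prc1, which crosslinks the midzone, at 29.8 and 13.8 CPM. Kif4, a chromosome motor, was at 9.83 and 5.44 CPM. The 3 members within 1.5-fold were all kinesins. Kif11, the motor that separates the spindle poles, was at 20.3 and 22.0 CPM, Kif23, the motor of the centralspindlin complex needed for cytokinesis, at 25.8 and 23.4 CPM, and Kif20b, a motor of late mitosis, at 19.2 and 13.5 CPM.

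The 3 genes tied to the anaphase promoting complex and mitotic exit were all lower. Cdc20, which activates the complex at anaphase, was at 35.6 and 11.3 CPM, 3.16-fold lower (2.83 to 3.53). Ube2c, the ubiquitin-conjugating enzyme that works with it, was at 153 and 55.1 CPM. Cdca3, a factor that triggers the destruction of Wee1 before mitosis, was at 44.0 and 15.4 CPM. In summed counts, then, the mitotic kinases, cyclin B1 and the exit activator showed larger differences than Mki67, Smc4, Kif11, Kif23 and Ncapd2.

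The other gates gave the same direction for most members. In cells with Foxp3, the transcription factor of regulatory T cells, 24 of 35 members were lower and 1 was higher, where 17.0% and 17.6% of all 10746 genes were lower and higher. The median was -0.81 for members and -0.01 for all genes, and the summed level was 2248.3 and 1463.2 CPM, a 1.54-fold difference (1.49 to 1.58). Mki67 was at 116 and 115 CPM there, while Cdc20 was at 50.4 and 12.7 CPM and Plk1 at 25 and 7.35 CPM. None of the 5 chromosome structure genes was past 1.5-fold in these cells. Transcripts of CD8 cells moved with the members in this gate, with Cd8a and Cd8b1 summed at 249 and 84 CPM and found in 29.6% and 17.4% of its cells. Without the cells that held a CD8 UMI, 24 members were lower and 1 higher, and the log2 ratio of the sum was -0.60.

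In CD4 cells without Foxp3, 25 of 32 members with enough UMIs were lower and 1 was higher, against 25.3% and 20.5% of all 9796 genes. The median was -1.63 for members and -0.08 for all genes. Ube2c was at 90.3 and 11.8 CPM, and Ccnb1 had 90 and 2 UMIs. The summed level was 939 and 483 CPM, a 1.94-fold difference. That difference rests on few cells, since 11 untreated and 1 treated cell, after thinning as described below, had UMIs of 8 or more members. With cells held to at most 5% mitochondrial UMIs, which leaves out 4 of the 11, the count of lower members was 14 and the log2 ratio of the sum -0.42. Bub1, Kif2c and Ttk did not pass the count minimum in this gate.

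In dendritic cells 27 of 30 members were lower and none was higher, against 15.5% and 21.9% of all 7758 genes, with a median of -1.22 for members and 0.05 for all genes. The summed level was 1264.1 and 533 CPM. Cdc20 had 127 and 2 UMIs, and Nusap1 had 109 and 3. Of the members called lower, Ccna2, Bub1b, Plk1, Ncapd2, Ndc80 and Nuf2 had intervals that included equality. Plk1 had 36 and 5 UMIs, and Nuf2 had 30 and 4. The treated value rests on 73 cells, of which 2 supplied 54.8% of the member UMIs after thinning. Without the cells with 2 macrophage genes 18 members were lower by the same rule, against 27 with them. The log2 ratio of the sum was then -0.82, against -1.25. The kinds of dendritic cell in the gate differed between the libraries. Markers of the cross-presenting type were found in fewer treated cells, with Xcr1 in 58.9% and 23.3%, Clec9a in 61.7% and 26% and Batf3 in 67.8% and 50.7%, and so was Itgax (CD11c), in 65.4% and 43.8%. Fscn1 and Ccl22, genes of mature migrating dendritic cells, were found in more, 18.2% and 45.2% for the first and 20.1% and 45.2% for the second, as were Cd209a (11.7% and 26%) and Zbtb46 (33.6% and 53.4%). Neutrophil genes summed to 1.56 and 190 CPM. The part of this make-up in the difference of the mitosis genes was not tested. Bub1, Kif2c, Kif4, Ncapg and Ttk did not pass the count minimum.

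**Figure D2:**
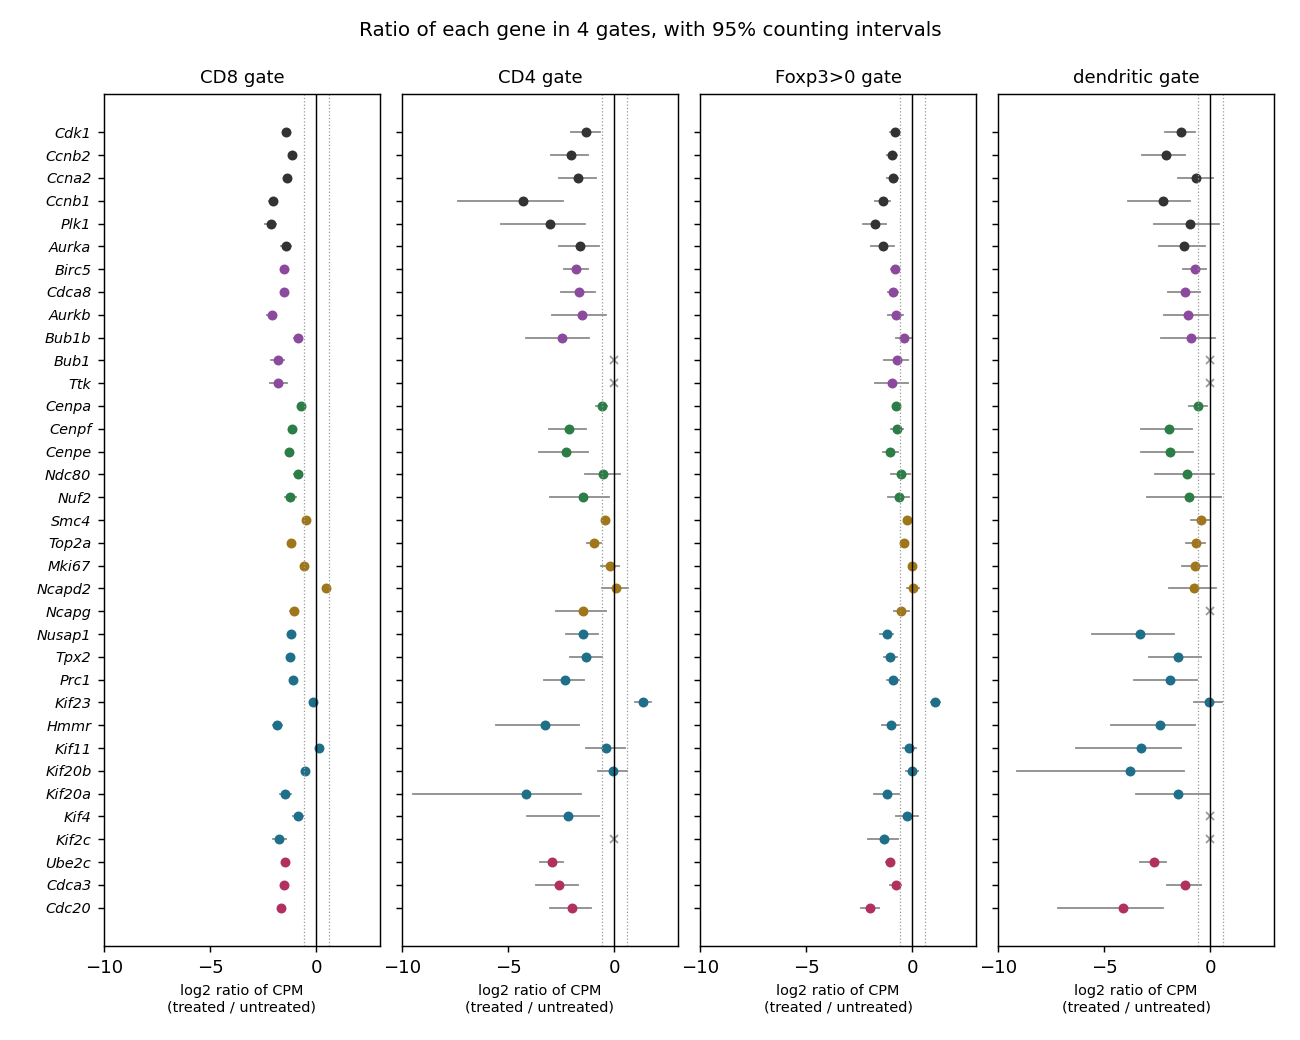
Log2 ratio of CPM, treated over untreated, for each of the 35 genes in the 4 gates, with bars for 95% counting intervals, dotted lines at 1.5-fold and crosses for genes under the count minimum. Most points lie left of the lower dotted line in each gate, and Kif23 lies right of the upper one in the CD4 and Foxp3 gates.

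Across the 4 gates 20 members were lower in every gate: Cdk1, Ccna2, Ccnb1, Ccnb2, Plk1, Aurka, Aurkb, Birc5, Cdca8, Cenpe, Cenpf, Nuf2, Tpx2, Kif20a, Nusap1, Prc1, Hmmr, Ube2c, Cdc20 and Cdca3. In dendritic cells the intervals of Ccna2, Plk1 and Nuf2 included equality. Kif23 and Smc4 were lower in no gate, and Kif11, Kif20b and Ncapd2 in 1 gate each. Kif23 was at 20.2 and 51.8 CPM in CD4 cells, 2.56-fold higher in the treated library (1.98 to 3.32), and at 35.0 and 74.2 CPM in cells with Foxp3, 2.12-fold higher (1.82 to 2.48). In CD8 cells its log2 ratio was -0.14 and in dendritic cells -0.08. The gates share their 2 libraries and are not independent of each other. How many of all genes were lower in all 4 gates was not counted, so the 20 members have no background beside them.

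Each cell was next thinned to 2000 UMIs, so that cells of different depth could be compared, and the different members with a UMI were counted. UMIs of 3 or more members were found in 527 of 4551 CD8 cells without treatment (11.6%, 10.7 to 12.5) and in 272 of 4870 with it (5.59%, 4.96 to 6.27), a ratio of shares of 0.482 (0.415 to 0.559). For cells with Foxp3 the shares were 21.9% (19.1 to 25) and 10.5% (7.98 to 13.5). The CD4 shares were 3.64% (2.55 to 5.02) and 1.66% (0.721 to 3.25), and the dendritic shares 9.86% (6.21 to 14.7) and 2.78% (0.338 to 9.68). The untreated and treated intervals were apart in the CD8 and Foxp3 gates and overlapped in the CD4 and dendritic gates. Without thinning the shares with 3 or more members were 29.6% and 28.5% in CD8 cells, 13.4% and 13.4% in CD4 cells, 54.4% and 43.9% in cells with Foxp3 and 24.8% and 20.5% in dendritic cells. The unthinned ratios of shares, 0.963, 1.00, 0.806 and 0.83, thus lay nearer to equality than the thinned ones in each gate. With 8 or more members the unthinned CD8 shares were 12.6% and 3.57%, and the thinned ones 4.99% and 1.97%.

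T cells of naive state, taken as resting, give the background of these shares. In T cells of naive state, with UMIs of 2 or more of Ccr7, Lef1 and Tcf7 and none of Pdcd1, Tox, Cd44 and Lag3, 1.60% of 2124 untreated and 1.72% of 522 treated cells had 3 or more members (median depth 5241.5 and 5100 UMIs). UMIs of 8 or more members were found in 7 untreated naive-state cells (0.33%) and in 0 treated ones. The untreated set was thus not resting throughout by this measure. The treated CD4 share lies at the background for 3 or more members and cannot be read as dividing cells. Smc4 had a UMI in 34.4% and 33.1% of naive-state cells and Cenpa in 7.20% and 8.81%. A UMI of Smc4 or Cenpa thus does not mark a dividing cell by itself. Whether these UMIs came from the cells or from free RNA in the droplets was not tested. Kif23 had a UMI in 3.53% and 4.6% of them, Ncapd2 in 1.65% and 3.45%, Top2a in 3.2% and 1.72%, and Aurka in 0.235% and 1.34%. Kif20b, Cdca8 and Ndc80 also reached 1% in 1 of the libraries. Counting only the 26 members found in under 1% of naive-state cells, the ratio of CD8 shares was 0.322.

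**Figure D3:**
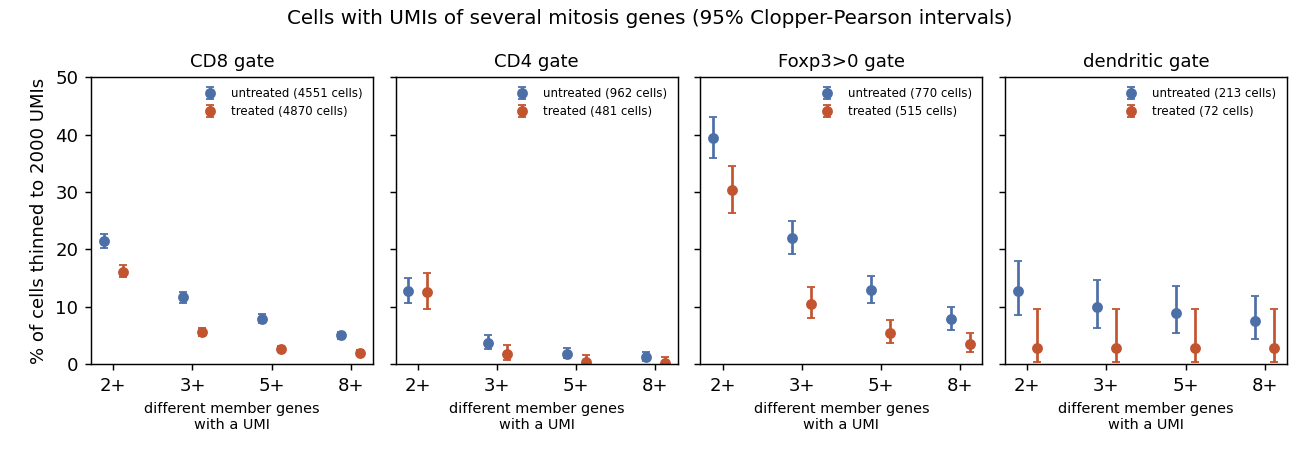
Share of cells, thinned to 2000 UMIs, with UMIs of at least 2, 3, 5 or 8 different mitosis genes in each gate, untreated and treated, with 95% Clopper-Pearson intervals. In the CD8 and Foxp3 gates the treated shares lie below the untreated ones at each count of members.

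The amount of member transcripts per cell is set in part by the class it is read in, since cells enter by these same UMIs. In CD8 cells with 3 or more members the mean was 10.3 member UMIs per 2000 in untreated and 8.87 in treated cells, with medians of 8 and 6. With 8 or more members the means were 16.6 and 16.7. Before thinning, the median depth of CD8 cells with 3 or more members was 18472 UMIs untreated and 11402.5 UMIs treated, against 6434 and 6413 UMIs in the remaining CD8 cells. Of the cells with 3 or more members 29.2% and 6.25% carried 2 or more macrophage genes, against 9.87% and 5.89% of the remaining cells. With all cells carrying 2 macrophage genes left out, the ratio of CD8 shares was 0.597 and the log2 ratio of the sum -0.85.

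The make-up of the programme differed within those CD8 cells. Mki67 made up 4.57% of all member UMIs in untreated and 7.05% in treated cells, Ncapd2 1.38% and 3.36%, and Kif11 1.21% and 2.53%. Aurkb made up 1.67% and 0.456%, Cdc20 2.30% and 1.12%, and Ccnb1 1.91% and 0.953%. Plk1, the lowest in summed counts, made up 0.955% and 0.912% (log2 ratio of shares -0.07, -0.86 to 0.68). The intervals of the kinases Cdk1, Aurka, Bub1 and Ttk also included equality here. Chromosome structure genes together held 23.7% and 28.9%, while the passenger and checkpoint genes held 15.7% and 11.7%. In the stricter class of 8 or more members, 227 untreated and 96 treated cells, Mki67 was at 4.48% and 8.25% and Aurkb at 1.80% and 0.562%, with log2 ratios of 0.88 (0.54 to 1.22) and -1.68 (-2.87 to -0.67). For Ccnb1 the interval in that class reached across equality (-0.58, -1.35 to 0.14), and for Cdc20 it did not (-0.98, -1.76 to -0.27). For Aurka it lay below equality there, from 35 and 3 UMIs (-2.31, -4.65 to -0.64). In cells with Foxp3 and 3 or more members, 169 and 54 cells, Mki67 was at 5.16% and 9.13% and Cdc20 at 3.05% and 1.11%, whereas Aurkb was at 1.47% and 1.78% with 25 and 8 UMIs.

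For each gene, CD8 cells with 3 or more of the other members were set apart as a multi-gene class, leaving the gene itself out of the count, to see where its UMIs lay. Kif11 was at 1.74 CPM in untreated and 10.9 CPM in treated cells with at most 2 other members, a log2 ratio of 2.65 (1.84 to 3.58) from 14 and 101 UMIs. Within cells with 3 or more other members it was at 61.8 and 87.9 CPM. Of all thinned Kif11 UMIs, 17.7% (untreated) and 69.2% (treated) lay outside the class. Ncapd2 outside the class was at 7.44 and 19.9 CPM (log2 ratio 1.42, 0.99 to 1.86), Bub1b at 1.74 and 4.67 CPM (1.43, 0.53 to 2.41) and Prc1 at 2.98 and 7.06 CPM (1.24, 0.55 to 1.98). These 4 genes were thus higher in treated cells that had few or no other mitosis transcripts, where 33.3% of all 10257 genes measured were also at least 1.5-fold higher and 17.9% lower.

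Aurka and Mki67 showed different patterns inside and outside. Inside the class Aurka had 43 UMIs in untreated and 4 in treated cells, 40.9 and 7.55 CPM, and outside it had 12 and 36 UMIs, 1.49 and 3.91 CPM. Mki67 was at 228 and 302 CPM inside, a log2 ratio of 0.4 (0.1 to 0.7) that is within 1.5-fold. Outside, Mki67 was higher in treated cells, at 4.59 and 8.13 CPM (0.83, 0.24 to 1.44). Both ratios lay above equality, although the sum over the gate was lower. Smc4 was the reverse of Kif11, at 367 and 363 CPM inside and at 213 and 137 CPM outside. Over the 24 members with at least 30 UMIs outside the class 8 were lower and 8 higher, with a median log2 ratio of 0.15 beside 0.19 for all genes. The higher share of the members was thus that of all genes (33.3%), while their lower share was above that of all genes (17.9%). Over the 34 with as many UMIs inside, 14 were lower and 2 higher, where 20.3% of all 5618 genes were lower and 25.4% higher. The median inside was -0.39 for the members and 0.01 for all genes.

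In cells with Foxp3, Kif23 was also higher outside the multi-gene class, at 15.7 and 86.9 CPM (log2 ratio 2.47, 1.73 to 3.27). Inside it was at 51.5 and 61.2 CPM, from only 17 and 6 UMIs (0.25, -1.38 to 1.66). Its thinned UMIs were to 52.8% (untreated) and 93.1% (treated) outside. In CD4 cells Kif23 was at 12.9 and 48.4 CPM outside the class. Kif23 UMIs in these 2 treated gates therefore came mostly from cells with at most 2 other mitosis genes. Such cells were also most of the treated cells, with 466 outside and 49 inside for Foxp3 and 475 and 6 for CD4. Kif23, Ncapd2 and Aurka also had UMIs in naive-state cells, at the shares given above.

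**Figure D4:**
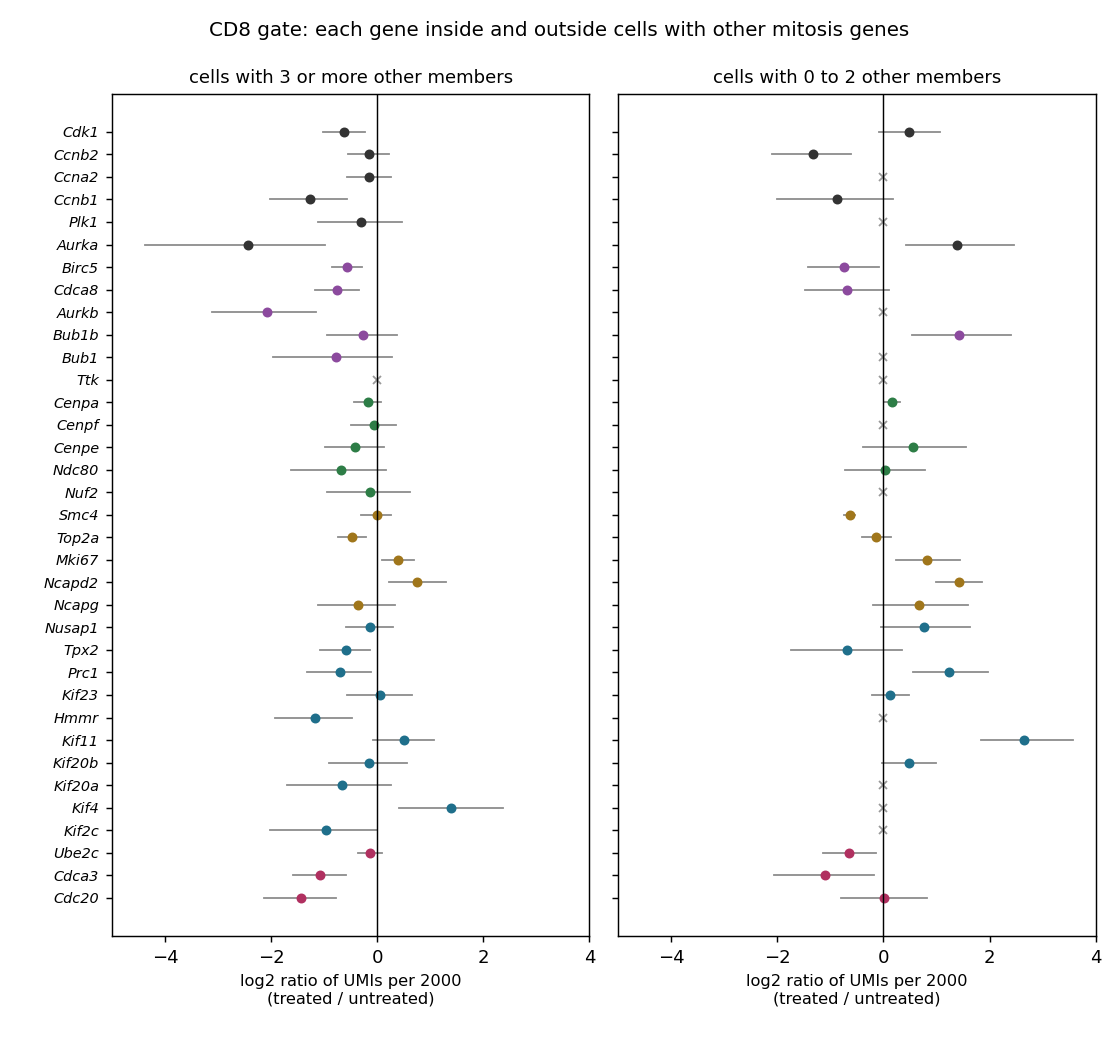
Log2 ratio, treated over untreated, of each gene in CD8 cells thinned to 2000 UMIs, in cells with 3 or more other members and in cells with 0 to 2, with 95% counting intervals and crosses for genes with under 30 UMIs. Kif11, Ncapd2, Bub1b, Aurka and Prc1 lie right of 0 outside the class, and Aurka, Aurkb and Cdc20 lie far left of 0 inside it.

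Within the untreated CD8 gate the share with 3 or more members was higher in cells with a UMI of Pdcd1 or of granzymes C to G. Pdcd1 encodes the receptor PD-1, which T cells show after activation, and granzymes C to G are made by strongly stimulated killer cells. Among untreated cells with a Pdcd1 UMI in the thinned counts 25.5% had 3 or more members (22.5 to 28.8), against 8.80% of those without (7.92 to 9.75). Among treated cells the shares were 5.67% (4.67 to 6.81) and 5.53% (4.74 to 6.41). For granzymes C to G the untreated shares were 33.6% with and 9.13% without, and the treated shares 6.63% and 5.44%. Pdcd1 was among the thinned UMIs of 16.4% of untreated and 38.1% of treated cells of the whole gate, cells too shallow to thin included. With Pdcd1 read from all UMIs of a cell, the untreated shares were 29.9% with it and 4.33% without, and the treated ones 6.96% (6.11 to 7.9) and 2.91% (2.15 to 3.83). Granzymes read that way gave 33.1% and 7.5% for untreated cells and 8.35% and 4.90% for treated cells. The treated shares with and without these markers therefore overlapped in their intervals or lay apart according to how the marker was read. Cells with a UMI of the marker among all their UMIs were also deeper. With and without Pdcd1 the medians were 12338 and 5903 UMIs for untreated cells and 6938 and 5650 UMIs for treated cells. Under both readings the treated share lay below the untreated one in cells with Pdcd1. Naive-state cells, 37.3% and 8.05% of the gate, had shares of 1.58% and 2.02%. They hold no Pdcd1 UMI by definition, so they count among the cells without it, and make up more of that group in the untreated library. The shares without Pdcd1 were not computed with naive-state cells left out.

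**Figure D5:**
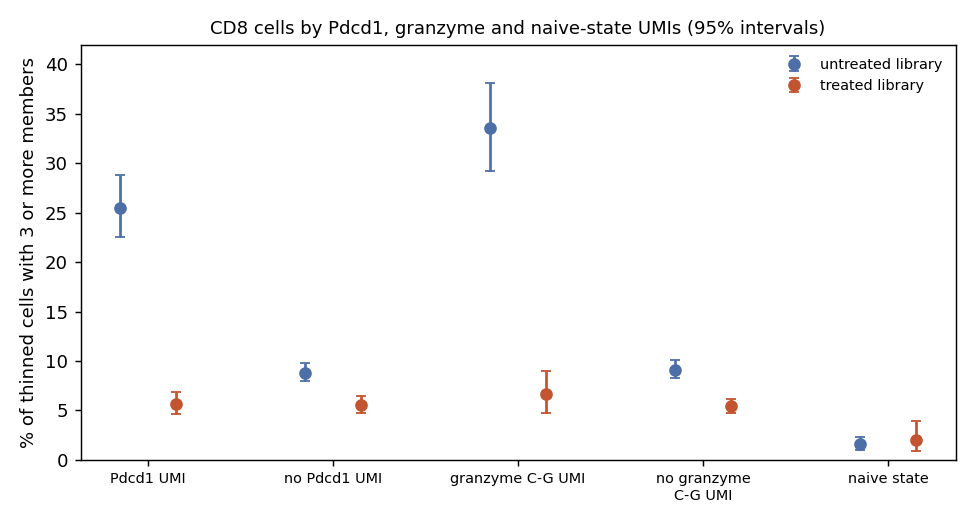
Share of thinned CD8 cells with UMIs of 3 or more mitosis genes, split by a UMI of Pdcd1, by a UMI of granzymes C to G and by naive state, with 95% Clopper-Pearson intervals. The untreated points with Pdcd1 (25.5%) and granzymes (33.6%) stand far above the treated ones (5.67% and 6.63%).

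Other genes of the cell cycle, from lists not sorted by their values, put the members in context. Of 49 other mitosis genes 35 were lower and 1 was higher in CD8 cells (median log2 ratio -0.98), where, as above, 22.5% of all genes were lower and 28.2% higher. The lowest were Pbk, a mitotic kinase, at 12.6 and 2.69 CPM, and Melk, a kinase of dividing cells, at 11.9 and 2.94 CPM. The highest were G2e3, a ubiquitin ligase, at 9.80 and 17.1 CPM, and Cks2, a subunit of cyclin-dependent kinases, at 88.8 and 124 CPM. Among 35 DNA replication and S phase genes 26 were lower and 2 higher (median -0.92). Tk1, thymidine kinase, was at 41.2 and 9.32 CPM and Tipin, of the replication fork, at 63.3 and 17.8 CPM. The 2 higher genes were Pcna, the sliding clamp, at 92.9 and 182 CPM, and Slbp, which binds histone mRNA, at 135 and 229 CPM. Pcna was higher in the other 3 gates too, at 49.2 and 167 CPM in CD4 cells, 87.6 and 150 in cells with Foxp3 and 47.9 and 103 in dendritic cells.

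In dendritic cells 1 of 31 S phase genes was lower and 7 were higher (median 0.12), beside 15.5% of all genes lower and 21.9% higher, where 27 of 30 members were lower. The higher share of the S phase list is near that of all genes. In cells with Foxp3 9 of 35 were lower and 1 higher (median -0.31), beside 17.0% and 17.6% of all genes. No difference between the lists was tested.

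Of 10 G1 regulators 4 were lower and 2 higher in CD8 cells, counts too small to set against the 22.5% and 28.2% of all genes. Ccnd1, a D-type cyclin, was at 24.4 and 4.29 CPM and Myc, a transcription factor of growth, at 33.9 and 7.28 CPM. Ccne2, an E-type cyclin, was at 5.12 and 21.0 CPM, Cdk6, the kinase partner of D-type cyclins, at 101 and 179 CPM, and Ccnd2 at 229 and 264 CPM. Of 14 inhibitors 6 were higher and 1 was lower (median 0.49, beside 0.05 for all genes). Cdkn1c (p57) was at 1.44 and 3.88 CPM and Rbl2 (p130), a pocket protein of resting cells, at 42.3 and 110 CPM. Cdkn1b (p27) was at 66.1 and 113 CPM, Cdkn1a (p21) at 70.1 and 102 CPM, Rbl1 (p107) at 17.3 and 14.7 CPM, and Cdkn2d (p19) at 84.6 and 37.2 CPM. In cells with Foxp3 the inhibitor list had 1 lower and 1 higher of 14, beside 17.0% and 17.6% of all genes, with Cdkn1b at 116 and 115 CPM and Cdkn1a at 169 and 153 CPM.

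Structural genes that are abundant in dividing cells had 5 lower and 1 higher of 15 in CD8 cells (median -0.52), beside 22.5% and 28.2% of all genes. Tubb5 and Tuba1b, which encode tubulins, were at 889 and 314 CPM and at 463 and 236 CPM. Lmnb1, lamin B1, was at 92.3 and 151 CPM, and H2afv, a histone variant, at 205 and 238 CPM. These genes are also expressed in cells that do not divide.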

How the data were processed

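Per the labels, a 10x droplet 3' kit (v3) was used. The submitters' processing notes name Cell Ranger and Seurat without versions and the build GRCh38, while the gene symbols are those of mouse, and no coordinate was taken from the files. The deposited table (15121 genes, 17390 cells) holds natural log values made by the authors, in which each cell was scaled to a sum of 10000 and 1 was added before the log, per the values. Whole UMIs were recovered from it (38204229 of 38204229 nonzero values whole within 0.01), so the analysis of UMIs planned for that case was used. Cells were assigned to libraries by the suffix of their names, through the sample numbers and cell numbers in the labels.

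Cells with over 10% mitochondrial UMIs (216 untreated, 358 treated) and the highest 5% of Scrublet scores (400, 376) were removed, since the automatic threshold marked 0.043% and 0.0% of cells. T cells were required to show Cd3e, Cd3d, Cd3g or Trac. CD8 cells were T cells with Cd8a or Cd8b1 and without Cd4 and Foxp3, CD4 cells had Cd4 without Cd8a, Cd8b1 and Foxp3, and Foxp3 cells had Foxp3. Dendritic cells had 5 or more class II UMIs and 2 or more dendritic genes, with none of the T cell, B cell or C1q genes. The dendritic genes were Flt3, Zbtb46, Xcr1, Clec9a, Itgax, Cd209a, Fscn1, Ccl22 and Batf3. The naive state was defined without 1 gene of the planned marker list, which is not reported here. A further 71 and 85 CD8 cells were too shallow for thinning to 2000 UMIs.

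Ratios have exact conditional binomial intervals and shares Clopper-Pearson intervals. On simulated CD8 sums of 12946 genes, 95.5% of intervals covered the simulated ratio. The interval excluded equality on the right side for 85.0% of genes changed 1.5-fold and 96.0% of those changed 2-fold. That measure is not the 1.5-fold call used in the text. The sums were drawn with counting (Poisson) error alone, so clustering of UMIs in few cells and differences between animals were not simulated. The members and lists were chosen with earlier results of these data known. Every member was described. Of each other list the 2 highest and 2 lowest ratios in CD8 cells were named, with Cdkn1a, Cdkn1b, Pcna, Myc and Ccnd2 always. Members named in the other gates, inside and outside the multi-gene class, were picked after their values were seen. The scripts ran in Python 3.11.15 with scanpy 1.11.5 (Scrublet), pandas 2.3.3, scipy 1.17.1 and numpy 2.4.6. Alternatives covered scaling, cell filters, gates, thinning depth, and count and fold minimums.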

Additional observations from a re-analysis of the deposited data

Results flagged for a closer look

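Kif23 lay on opposite sides of equality in the gates. Its log2 ratio of treated over untreated was 1.36 in CD4 cells (0.99 to 1.73, from 117 and 132 UMIs) and -0.14 in CD8 cells (-0.27 to -0.01, from 1145 and 851 UMIs). In cells with Foxp3 it was 1.09 (0.86 to 1.31, from 338 and 333 UMIs). With 1 library per group the difference between gates was not tested.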

How the results depend on the processing

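The count of lower members stayed within 1.5 times its value under the 13 alternatives in CD8 cells (25 to 32). It was 14 in CD4 cells both at 5% mitochondrial UMIs and at 100 UMIs, 11 in Foxp3 cells at 2-fold and 13 in dendritic cells at 100 UMIs. The direction of the summed ratio held throughout. With cells averaged one by one its log2 was -0.69 (CD8), -0.35 (CD4), -0.72 (Foxp3) and -1.47 (dendritic). At 5% mitochondrial UMIs it was -1.07 (CD8), -0.42 (CD4) and -0.78 (Foxp3). Without cells with 2 macrophage genes it was -0.85 (CD8), -0.86 (CD4), -0.70 (Foxp3) and -0.82 (dendritic). Gates of 2 UMIs gave -1.19 (CD4) and -0.52 (Foxp3). In CD8 cells it was -1.13 without ribosomal and mitochondrial genes, -0.96 over all deposited cells, -0.96 with no doublet removal, -1.05 by median ratio scaling -1.04 without shared barcodes and -0.96 without cells with a red cell UMI, the last 2 added after seeing the data. The ratio of shares in CD8 cells was 0.379 at 1000 UMIs, 0.689 at 4000, 0.752 for 2 members and 0.342 for 5. It was 0.597 without cells with 2 macrophage genes. In Foxp3 cells it was 0.685 at 4000 UMIs and 0.767 for 2 members.

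Alternatives added after seeing the data gave CD8 ratios of 0.963 unthinned, 0.395 for 8 members, 0.283 for 8 unthinned and 0.322 for the members rare in naive cells. Unthinned ratios were 0.806 in Foxp3 cells and 1.00 in CD4 cells, where the direction was lost, and 8 members gave 0.182 in CD4 cells. Causes were not tested. No paired analysis was possible because each group has 1 library, and none could be left out. The dendritic and CD4 results are limited by 2 and 8 treated cells with 3 or more members.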
